A study of Mus musculus with 12 samples.

Results

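The genes described here carry ions, water, folate and organic anions across the choroid plexus epithelium, or seal the junctions between its cells. They are Folr1, Slc4a5, Slco1a5, Aqp1, Kcnj13, Kcne2, Clic6, Cldn1, Cldn2 and Trpv4, chosen by name for these roles. The choice was made with earlier results of these data known. Shares of all genes given beside theirs are therefore a description and not independent support. Of the 10 genes, 9 had an array row paired with their symbol alone, out of 22180 genes with such a row. Kcnj13, an inward-rectifier potassium channel, had only a row that carries several gene symbols, and no value is given for it. By RefSeq, Slc4a5, Slco1a5 and Aqp1 lie on chromosome 6, Kcne2, Clic6 and Cldn1 on chromosome 16, Folr1 on 7, Trpv4 on 5 and Cldn2 on X.

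Total RNA from mouse cerebellum was hybridised to 12 Affymetrix whole-transcript arrays, 1 per animal, with 3 arrays in each of 4 groups. WT_male and WT_female are controls, and KO_male and KO_female are Ciz1-/- mice, in which the gene is lost through the germline. The labels give 2 readings of the controls, Ciz1+/- in the genotype field and Ciz1+/+ in the protocol, while the source names call them wild type. The age is given as 10 months in the protocol and as a range from 6 to 10 months in the design, and neither the nature of the Ciz1 allele nor the strain is given. Replicate numbers only name an array, and p-values measure the spread between these mice. Values are log2 of the deposited RMA intensity, a difference of 1 being a doubling, and differences are knockout minus wild type unless stated otherwise.

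The choroid plexus is the epithelium that secretes cerebrospinal fluid into the brain ventricles, and the plexus of the fourth ventricle lies against the cerebellum. Its cells move sodium, chloride, bicarbonate and water from blood to ventricle, and their tight junctions restrict leakage around the cells. A whole cerebellum holds few such cells, so the level of their transcripts in bulk RNA depends on how much plexus was taken with the tissue and on RNA per cell, which cannot be told apart here. Transthyretin, encoded by Ttr, is the best known secreted product of these cells and served as the outside reference.

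The labels were checked first. Ciz1 read 8.70 to 8.90 on the 6 wild-type arrays and 6.82 to 7.31 on the 6 knockout arrays, with no overlap. The difference was -1.64 (SE 0.07; limma adjusted p = 1.42e-06). Neuronal genes of the cerebellum, such as Calb1 and Gabra6, were bright and even, their mean over 10 genes staying between 11.05 and 11.13 on every array. Ttr, in contrast, ran from 7.59 to 13.33, and it was highest on WT_male 1 (13.33), WT_female 2 (13.32), KO_female 2 (13.11), KO_male 2 (12.87) and WT_female 3 (12.60). Each of the 4 groups therefore held at least 1 of the 5 arrays highest in Ttr.

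Promoter sequences are shown for 5 of the genes that moved together between arrays, as 120 bases directly before the annotated start, taken from RefSeq on GRCm38.p6. Entries were found for 8 of the 10 genes, and Folr1 and Clic6 had none. Capitals mark TATAAA, the TATA box letters, and TAATC, a core bound by homeodomain factors such as OTX2, each on either strand (TTTATA and GATTA on the other).
Slc4a5, chr6:83237255-83237374, plus strand: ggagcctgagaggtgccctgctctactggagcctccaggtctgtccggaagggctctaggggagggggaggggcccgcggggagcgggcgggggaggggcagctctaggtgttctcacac
Kcne2, chr16:92292269-92292388, plus strand: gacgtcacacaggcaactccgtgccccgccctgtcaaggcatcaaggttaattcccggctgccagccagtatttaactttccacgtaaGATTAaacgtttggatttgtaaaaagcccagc
Cldn1, chr16:26371840-26371959, minus strand: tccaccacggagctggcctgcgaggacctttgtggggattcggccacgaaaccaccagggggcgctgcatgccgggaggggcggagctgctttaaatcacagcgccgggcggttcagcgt
Cldn2, chrX:139800688-139800807, plus strand: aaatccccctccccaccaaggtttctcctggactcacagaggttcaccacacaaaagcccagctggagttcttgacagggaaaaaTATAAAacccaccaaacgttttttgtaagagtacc
Trpv4, chr5:114658422-114658541, minus strand: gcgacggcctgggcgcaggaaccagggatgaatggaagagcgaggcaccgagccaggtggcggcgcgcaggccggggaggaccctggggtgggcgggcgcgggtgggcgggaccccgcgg

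Capitals fall in 2 of the 5 sequences. Aqp1 and the other start of Kcne2 have entries too but are not shown, and neither held these letters. Kcnj13 and Slco1a5, also not shown, did hold some. Over the 250 bases before each start, TATAAA occurred in 5 of 10 windows of the genes, against 12.4% of 32851 windows in the table, and TAATC occurred in 3 of 10 windows, against 19.8%. The longer OTX2 core TAATCC occurred in 0 of 10 windows, against 6.25%. The windows with TATAAA were those of Slc4a5, Cldn2, Kcnj13 and the 2 starts of Slco1a5. Those with TAATC belonged to Kcne2, Kcnj13 and a start of Slco1a5. Kcnj13 has no value here, and Slco1a5 was the exception in pattern described below. In Cldn2 the TATA letters begin 35 bases before the start and in Kcnj13 29 bases before it. They begin 127 bases before it in Slc4a5, and 196 and 97 in Slco1a5. In Kcne2 the GATTA letters begin 32 bases before the start. Slco1a5 and Kcne2 have 2 starts each in the table, so the 10 windows belong to 8 genes, and a match only says that the letters are present.

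Levels varied far more between animals than most genes did. The SD within groups lay between percentile 90.7 of all genes for Slco1a5 and percentile 99.9 for Slc4a5 and Cldn1. The highest array exceeded the lowest by 1.82-fold in Slco1a5 and Kcne2 and by 2.97-fold in Cldn1, while Ttr spanned 53.3-fold. WT_female 2 was among the 3 highest arrays in all 9 genes and WT_male 1 in 8, and KO_female 2 was among the 5 highest in all 9. In each of Slc4a5, Folr1, Aqp1, Cldn1, Cldn2 and Trpv4 the 5 highest arrays were the same 5 that were highest in Ttr.

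**Figure D1:**
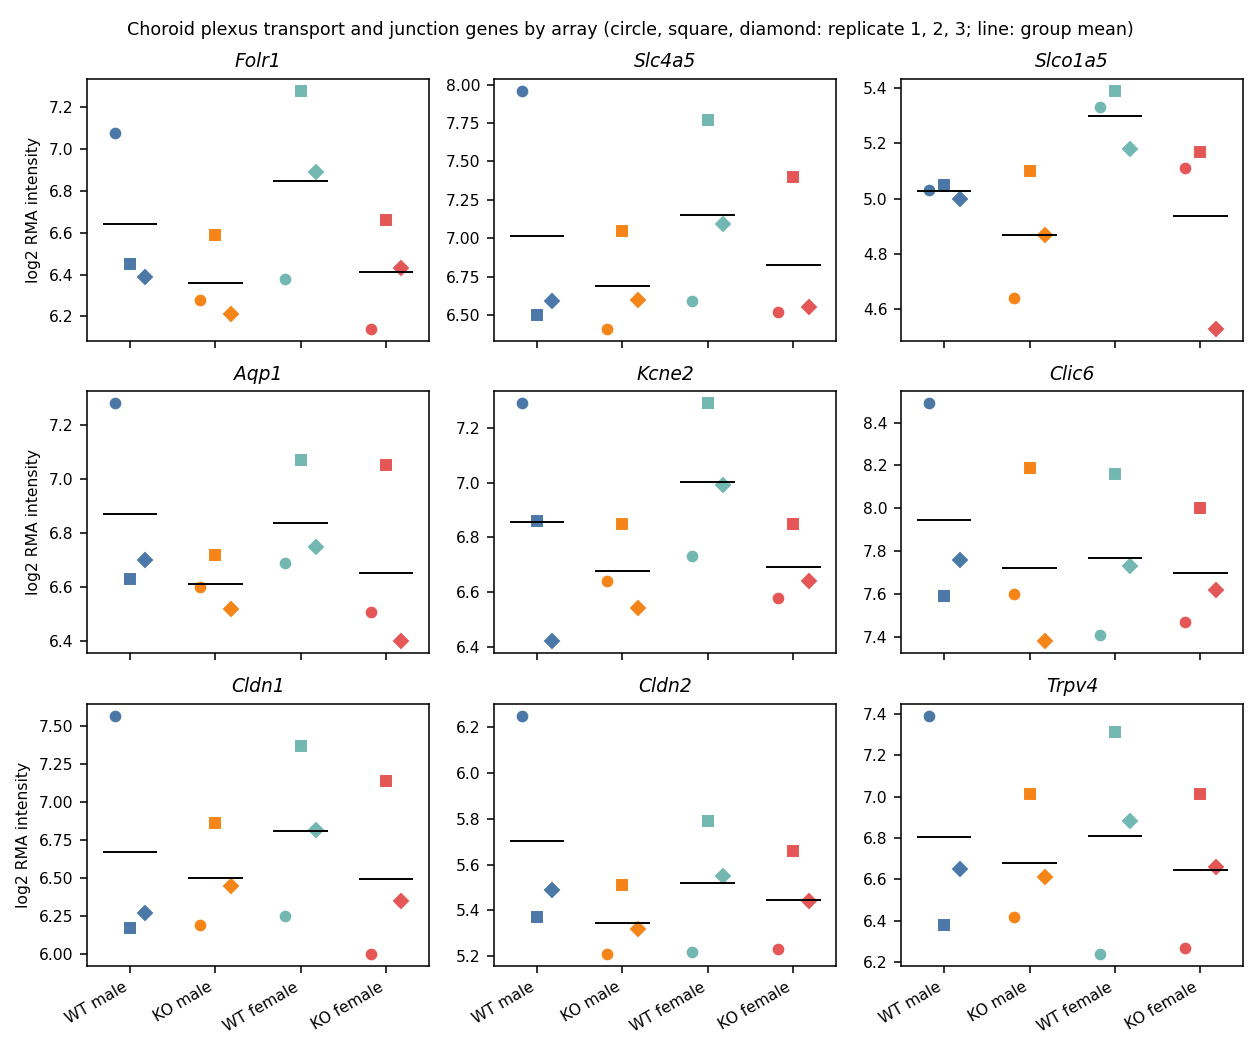
Log2 RMA intensity of 9 choroid plexus transport and junction genes, with 1 point per array, the replicate given by the point's shape, and a line at the mean of each group of 3. In Slc4a5 and Cldn1 the highest array of each group was WT_male 1, KO_male 2, WT_female 2 or KO_female 2, and knockout and wild-type arrays overlapped. WT_female 3 was also raised, at 7.09 in Slc4a5 and 6.82 in Cldn1, against 6.59 and 6.25 on WT_female 1.

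Folr1 encodes folate receptor alpha, which takes folate from blood to cerebrospinal fluid across the plexus. It read 7.08, 6.45 and 6.39 in WT_male and 6.38, 7.28 and 6.89 in WT_female. In the knockout it read 6.28, 6.59 and 6.21 in males and 6.14, 6.66 and 6.43 in females. The top 3 arrays were all wild type, but the remaining wild-type arrays lay inside the knockout range. Folr1 had the largest difference of the 9 genes over both sexes, -0.36 (SE 0.17, 95% interval -0.72 to 0.00; limma adjusted p = 0.538), and did not pass.

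Slc4a5 encodes a sodium bicarbonate cotransporter of the ventricular face of the plexus. Its values were 7.96, 6.50 and 6.59 in WT_male and 6.59, 7.77 and 7.09 in WT_female. They were 6.41, 7.05 and 6.60 in KO_male and 6.52, 7.40 and 6.55 in KO_female. A few arrays stood well above a floor near 6.5 that all 4 groups shared. The genotype difference was -0.33 (SE 0.28, 95% interval -0.95 to 0.29; limma adjusted p = 0.746).

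Slco1a5 encodes an organic anion transporting polypeptide that carries bile acids, steroid conjugates and thyroid hormones, and it was the exception in pattern. It read 5.03, 5.05 and 5.0 in WT_male, near-identical values although Ttr differed between these arrays from 11.13 to 13.33. The values were 5.33, 5.39 and 5.18 in WT_female, 4.64, 5.10 and 4.87 in KO_male, and 5.11, 5.17 and 4.53 in KO_female. In females the knockout arrays all lay below the wild-type arrays, by as little as 5.17 against 5.18; 7.41% of all genes were lower without overlap in that comparison. The difference in females was -0.37 (SE 0.16; limma adjusted p = 0.557), and over both sexes it was -0.26 (SE 0.11; adjusted p = 0.517). The row was dim, at percentile 14.3 of the genes' mean brightness, and the files hold no detection call to show whether it lay above background.

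Aqp1, the water channel of the ventricular membrane, read 7.28, 6.63 and 6.70 in WT_male and 6.69, 7.07 and 6.75 in WT_female. It read 6.60, 6.72 and 6.52 in KO_male and 6.51, 7.05 and 6.40 in KO_female. WT_male 1, WT_female 2 and KO_female 2 stood above the rest, and the genotypes overlapped (difference -0.22, SE 0.14; limma adjusted p = 0.645).

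Kcne2 encodes a single-pass subunit that joins potassium channels such as Kcnq1. Its readings were 7.29, 6.86 and 6.42 in WT_male, 6.73, 7.29 and 6.99 in WT_female, 6.64, 6.85 and 6.54 in KO_male, and 6.58, 6.85 and 6.64 in KO_female. The lowest value of all, 6.42, was a wild-type array, so the knockout range of 6.54 to 6.85 lay within the wild-type range. The difference was -0.25 (SE 0.14; limma adjusted p = 0.612).

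Clic6 belongs to the chloride intracellular channel family. Male wild-type arrays gave 8.49, 7.59 and 7.76, and female ones gave 7.41, 8.16 and 7.73. Knockout arrays gave 7.60, 8.19 and 7.38 in males and 7.47, 8.0 and 7.62 in females. KO_male 2 was the second highest array, and the genotype difference was among the smallest of the 9 genes at -0.15 (SE 0.19; limma adjusted p = 0.854).

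Trpv4 encodes a calcium-permeable cation channel opened by cell swelling and warmth, which in the plexus sits in the ventricular membrane. It read 7.39, 6.38 and 6.65 in WT_male and 6.24, 7.31 and 6.88 in WT_female. Both knockout groups had a highest array of 7.01, with 6.42 and 6.61 beside it in KO_male and 6.27 and 6.66 in KO_female. Its difference of -0.15 (SE 0.22; limma adjusted p = 0.88) turned to 0.00 when WT_male 1 was left out.

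Claudins are the membrane proteins that set which ions pass between epithelial cells. Cldn1, a sealing claudin, read 7.57, 6.17 and 6.27 in WT_male and 6.25, 7.37 and 6.82 in WT_female. The knockout arrays read 6.19, 6.86 and 6.45 in males and 6.00, 7.14 and 6.35 in females. The order of the 5 highest arrays in Cldn1 was that of Ttr, and its spread of 1.57 between highest and lowest array was the widest of the 9 genes. The difference between genotypes was -0.24 (SE 0.28, 95% interval -0.86 to 0.38; limma adjusted p = 0.829).

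Cldn2 forms a pore for sodium, potassium and water between cells of leaky epithelia, and its gene is X-linked. It read 6.25, 5.37 and 5.49 in WT_male and 5.22, 5.79 and 5.55 in WT_female. In KO_male it read 5.21, 5.51 and 5.32, and in KO_female 5.23, 5.66 and 5.44. WT_male 1 alone stood apart, and the row was dim, at percentile 21.2 of the genes' mean brightness. The difference was -0.22 (SE 0.15; limma adjusted p = 0.693), -0.36 in males and -0.07 in females, and these were not shown to differ (0.29, SE 0.30; adjusted p = 0.999). Females and males differed by -0.04 in Cldn2 (SE 0.15; adjusted p = 0.963).

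All 9 genes were lower on average in the knockout, with a median difference of -0.24 and a range from -0.36 to -0.15. Without WT_male 1, the array highest in Ttr, the median was -0.09 and 7 of the 9 moved by over 1.5 times, with Slc4a5 at -0.09, Aqp1 at -0.12, Kcne2 at -0.14, Clic6 at -0.01, Cldn1 at -0.02, Cldn2 at -0.08 and Trpv4 at 0.00. Without WT_female 2 the median was -0.16 and 4 of the 9 moved by that much, and without any other single array it lay between -0.32 and -0.18, with Clic6, Cldn1, Trpv4 or Slco1a5 moving by over 1.5 times in some of these fits. None passed over all genes (limma adjusted p from 0.517 to 0.88), where 0.0225% of genes did, and none had knockout arrays all below the wild-type arrays, against 0.23% of genes. At an unadjusted p under 0.05, 2 of 9 were lower, Folr1 and Slco1a5, against 4.87% of all genes, and 50.4% of all genes had a difference below 0, with a median of -0.0007. The 9 genes are read from the same 12 arrays, so their common direction is not 9 separate observations. Ttr itself differed by -1.15 (SE 1.02; limma adjusted p = 0.753).

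The Ttr level of each array was entered as a covariate in a straight line. All of the 9 genes but Slco1a5 departed from such a line on the arrays described below, and curvature was not tested. With this covariate, 6 of the 9 genes were lower and 3 higher in the knockout, with a median of -0.08. Clic6 then differed by 0.03, Cldn1 by 0.03 and Trpv4 by 0.07, while Slc4a5 went from -0.33 to -0.08. Folr1 kept -0.20 (SE 0.09; limma adjusted p = 0.547) and Slco1a5 kept -0.24 (SE 0.12; adjusted p = 0.582). A covariate made from 19 other genes of the plexus epithelium, added after seeing the data, left a median of -0.06, with Folr1 at -0.19 (SE 0.06, 95% interval -0.32 to -0.06; adjusted p = 0.412) and Slco1a5 at -0.22 (SE 0.11; adjusted p = 0.606).

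**Figure D2:**
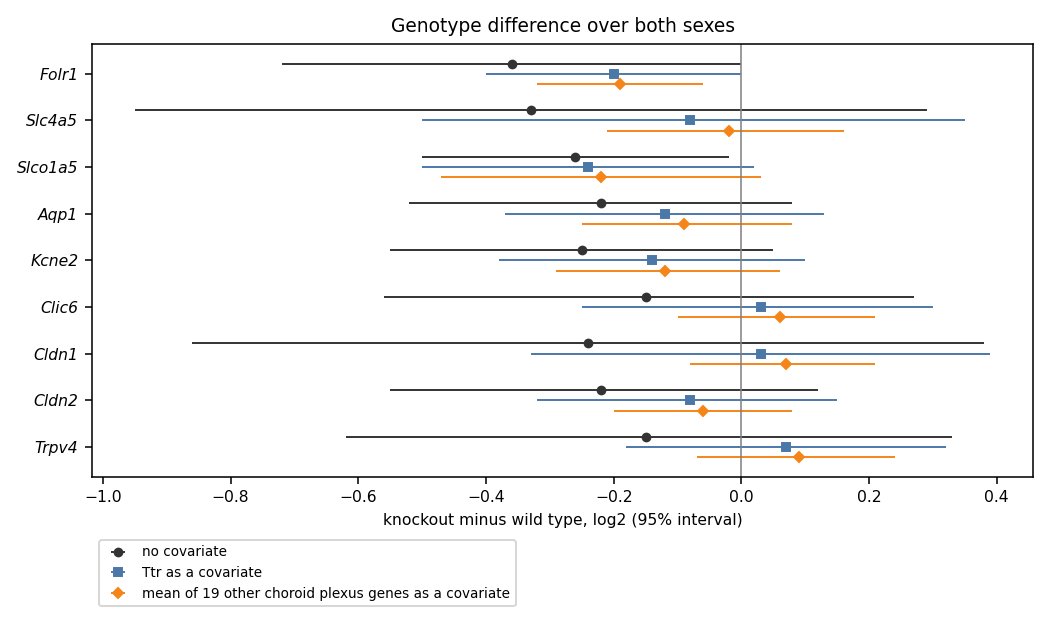
Knockout minus wild type over both sexes on the log2 scale for the 9 genes, with 95% intervals from limma, without a covariate and with Ttr or the mean of 19 other plexus genes as a covariate. Differences of -0.36 to -0.15 without a covariate become -0.24 to 0.07 with Ttr as a covariate, and no gene passes after adjustment over all genes. The Ttr covariate is a straight line, from which all of the 9 genes but Slco1a5 departed on some arrays, and curvature was not tested.

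By sex, the 9 differences ran from -0.36 to -0.13 in males (limma adjusted p from 0.928 to 0.982) and from -0.44 to -0.07 in females (adjusted p from 0.557 to 0.962). In each sex 0.0225% of all genes passed. All 9 were below 0 in each sex, as were 51.9% of all genes in males and 49.4% in females. At an unadjusted p under 0.05, 0 of 9 were lower in males, against 2.8% of all genes, and 1 of 9 in females, Slco1a5, against 3.98%. No gene of the 9 was lower without overlap in males, against 5.64% of genes. Several male values changed sign without WT_male 1. Then Slc4a5 differed by 0.14, Cldn1 by 0.28 and Trpv4 by 0.16 in males, against -0.33, -0.17 and -0.13 with all arrays. Without WT_female 2, Clic6 differed by 0.13, Cldn2 by 0.06 and Trpv4 by 0.09 in females.

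No gene of the 9 passed for the difference between the sexes in the genotype effect, where 0% of all genes passed by limma and 4.82% had an unadjusted p under 0.05. None of the 9 did at that level either. Averaged over genotype, 5 of the 9 were higher in females and 3 in males, and Aqp1 had a difference of 0.00 (within 0.0005 of 0). The largest difference was that of Slco1a5, 0.17 (SE 0.11; limma adjusted p = 0.722), and 0.0361% of all genes passed, while 0 of the 9 and 7.93% of all genes had an unadjusted p under 0.05.

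How steeply each gene ran with Ttr between animals of one group was then fitted as a slope, the log2 change per log2 unit of Ttr. All 9 slopes were above 0, as were 47% of those of all genes. They were 0.24 for Cldn1 (SE 0.04), 0.22 for Slc4a5 (SE 0.05), 0.19 for Trpv4 (SE 0.03), 0.15 for Clic6 (SE 0.03) and 0.14 for Folr1 (SE 0.02). Cldn2 followed with 0.11 (SE 0.03), and Aqp1 and Kcne2 both had 0.09 (SE 0.03). Slco1a5 had 0.02 (SE 0.03, 95% interval -0.05 to 0.09), and its difference from the other slopes was not tested.

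No slope passed over all genes, for the 9 (limma adjusted p from 0.256 to 0.932) or for any of 22179 genes (0%). At an unadjusted p under 0.05, 8 of the 9 genes had a positive slope, all but Slco1a5, against 3.9% of all genes. By moderated t, Trpv4 ranked 5th of all genes, Folr1 9th and Cldn1 14th. The Ttr term took up 79.4% of the variance within groups in Trpv4, 78.2% in Folr1, 73.9% in Cldn1 and 3.58% in Slco1a5. With an intensity trend in the variance prior, Trpv4 passed (adjusted p = 0.035).

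**Figure D3:**
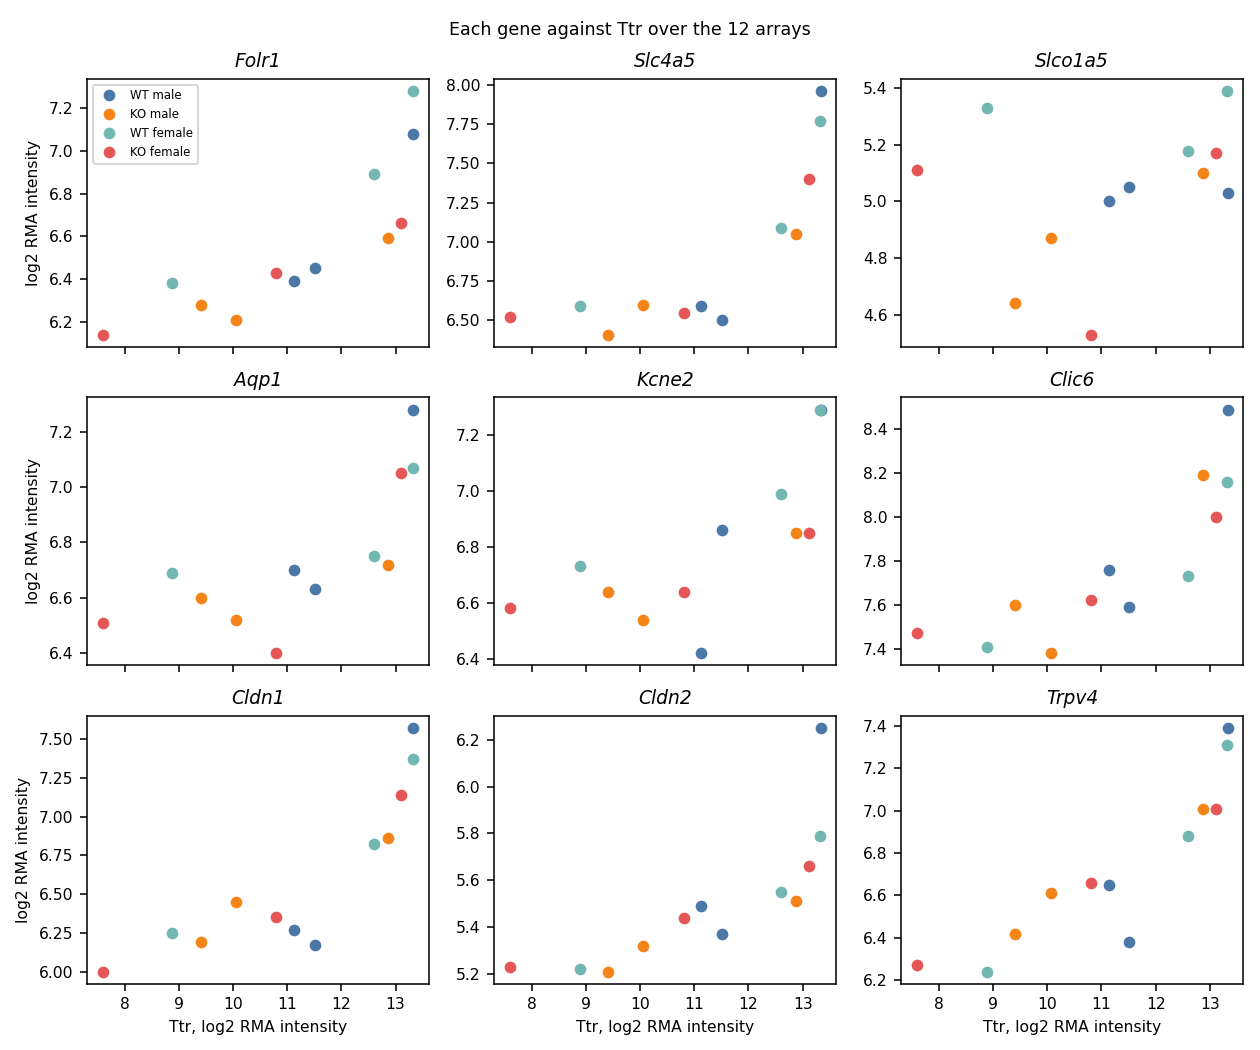
Log2 RMA intensity of each gene against that of Ttr over the 12 arrays, coloured by group. In Slc4a5, KO_female 1 and WT_male 2 read 6.52 and 6.50 although their Ttr levels were 7.59 and 11.51. Every gene but Slco1a5 rose more from WT_male 2 to WT_male 1 than from KO_female 1 to WT_male 2.

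The course was not a straight line. KO_female 1 and WT_male 2 lay at 7.59 and 11.51 in Ttr and at 6.52 and 6.50 in Slc4a5. WT_male 2 and WT_male 1 differed by less in Ttr, 11.51 against 13.33, and by more in Slc4a5, 6.50 against 7.96. Cldn1 did likewise, with 6.00, 6.17 and 7.57 on KO_female 1, WT_male 2 and WT_male 1. In the same order, Trpv4 read 6.27, 6.38 and 7.39, and Clic6 7.47, 7.59 and 8.49. Cldn2 read 5.23, 5.37 and 6.25, and Aqp1 6.51, 6.63 and 7.28. Folr1 (6.14, 6.45 and 7.08) and Kcne2 (6.58, 6.86 and 7.29) also rose more over the smaller step in Ttr. Slco1a5 did not, with 5.11, 5.05 and 5.03.

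The mean of 19 other plexus epithelium genes, such as Kl, Sostdc1, F5 and Ttr itself, gave a reference level that did not rest on 1 transcript. Its 18 genes other than Ttr stayed among the genes tested, each against a mean that contains it. Of all genes 39 passed (0.176%, with 0.162% upward), and 8 of these were genes of that mean. Against the same mean, 6 of the 9 genes had a slope above 0 that passed over all genes. The slopes were 1.34 for Cldn1 (SE 0.09; limma adjusted p = 9.22e-05), 1.32 for Slc4a5 (SE 0.11; adjusted p = 0.000402) and 1.0 for Trpv4 (SE 0.09; adjusted p = 0.000951). Clic6 had 0.87 (SE 0.09; limma adjusted p = 0.00287), Folr1 0.76 (SE 0.08; adjusted p = 0.00218) and Cldn2 0.67 (SE 0.09; adjusted p = 0.0104). Aqp1 (0.57, SE 0.10; limma adjusted p = 0.0797) and Kcne2 (0.57, SE 0.11; adjusted p = 0.116) did not pass, nor did Slco1a5 (0.17, SE 0.15; adjusted p = 0.911).

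The spread left around this level was below that without it in 8 of the 9 genes. In Cldn1 the SD within groups went from 0.589 to 0.113, in Slc4a5 from 0.588 to 0.151 and in Trpv4 from 0.446 to 0.120. It went from 0.274 to 0.132 in Aqp1 and from 0.279 to 0.143 in Kcne2, which did not pass. In Slco1a5 it was 0.221, from 0.218.

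Within the wild-type arrays alone the slopes on Ttr were 0.31 for Slc4a5, 0.31 for Cldn1 and 0.26 for Trpv4, and within the knockout arrays alone 0.16, 0.20 and 0.14. Folr1 had 0.21 in wild type and 0.10 in knockout, Clic6 0.19 and 0.13, and Cldn2 0.17 and 0.08. No slope passed in these smaller fits (limma adjusted p from 0.658 to 0.997), and the genotypes were not tested against each other. Ttr reached 13.33 in wild type and 13.11 in the knockout.

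The genes outside the 9 with the largest moderated t for the slope on Ttr were Hamp, Kl, Calml4, Vwa3a, Wdr86, Ezr, Htr2c, Nek5, AF067063 and P3h2. None passed (limma adjusted p from 0.165 to 0.281). The Hamp row was dim, from 2.84 on WT_female 1 to 3.82 on KO_female 2, below every value of Slco1a5. No detection call shows whether Hamp lay above background. Kl encodes the anti-ageing protein klotho of the plexus and Htr2c the serotonin receptor 2C, dense in this epithelium. Htr2c read 7.95 on WT_male 1, 7.51 on WT_female 2 and 7.14 on KO_female 2, the same 3 arrays that led in Slc4a5, Aqp1, Cldn1, Cldn2 and Trpv4.

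The other plexus epithelium genes had a median slope on Ttr of 0.10 over the 18 tested, with 17 above 0, 13 of these at an unadjusted p under 0.05, and 0 past the threshold. The smallest p-values among them were those of Kl with a slope of 0.58, Calml4 with 0.20 and the BMP antagonist gene Sostdc1 with 0.26. F5, with 0.35, was steeper than Calml4 and Sostdc1. Between genotypes 18 of 19 of them, Ttr included, were lower in the knockout, with a median of -0.13 and 0 past the threshold.

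Other transporters and pumps of the plexus were taken as a list of 30, of which 24 were tested, with a median slope on Ttr of 0.02 against 0.14 for the 9 genes and -0.0015 for all genes. The carbonic anhydrase Car12 had the steepest, 0.30 (SE 0.06; limma adjusted p = 0.356). By p-value the glucose carrier Slc2a12 came next with 0.14 (SE 0.04; adjusted p = 0.508). The copper carrier Slc31a1, with 0.05, followed by p-value and not by steepness. Slc12a2, the sodium, potassium and chloride cotransporter, had 0.00 and the sodium pump subunit Atp1b1 had 0.00, and both are also transcribed in neurons and glia. Between genotypes 15 of the 24 were lower and 9 higher, with 0 past the threshold.

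Relatives from the same families had a median slope of 0.01 over 42 tested genes, with 25 above 0, 17 below 0 and 0 past the threshold. The claudins Cldn3 (SE 0.02; limma adjusted p = 0.475) and Cldn7 both had 0.06, while the endothelial claudin Cldn5 had -0.03 and the myelin claudin Cldn11 -0.01. Aqp4, the astrocyte water channel, had -0.03 and the folate receptor Folr2 had 0.01. The anion carriers Slco1a4 (-0.01) and Slco1a6 (-0.06, SE 0.02; adjusted p = 0.493) belong to the same subfamily as Slco1a5. Among 15 tight junction genes the median slope was 0.01, with Tjp3 at 0.05 and Cdh1 at 0.04.

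Markers of neighbouring cells are given beside these slopes. Of 14 meningeal fibroblast genes, 14 had a slope above 0, with a median of 0.05 and 0 past the threshold, and Dcn had 0.10, Bgn 0.08 and Igfbp6 0.07. Their mean level ranged from 7.85 to 8.01 in WT_male, 7.81 to 7.94 in WT_female, 7.73 to 8.16 in KO_male and 7.59 to 8.17 in KO_female, highest on KO_female 2 and KO_male 2. Of 14 ependymal and ciliated cell genes, 13 had a slope above 0, with a median of 0.03, Dynlrb2 at 0.09, Tmem212 at 0.07 and Meig1 at 0.10. Their mean was 5.96 to 6.23 in WT_male, 5.96 to 6.18 in WT_female, 5.93 to 5.98 in KO_male and 5.87 to 6.34 in KO_female. It was highest on KO_female 3, where 0 of the 9 genes was among the 5 highest. Endothelium and pericytes had a median slope of 0.00 over 14 genes, with Cdh5 at 0.04, Pdgfrb at 0.05 and Cldn5 at -0.03. Cerebellar glia had 0.00 over 11, with the astrocyte filament gene Gfap at -0.05, the myelin gene Mog at -0.06 and Gdf10 at 0.06. Cerebellar neurons had -0.01 over 10, with Calb1 at 0.02, Slc17a7 at -0.02 and Cbln1 at -0.02. Blood had 0.01 over 3, with Slc4a1 at 0.05, S100a8 at 0.01 and S100a9 at 0.00. The part of these cells in the members' levels was not tested.

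**Figure D4:**
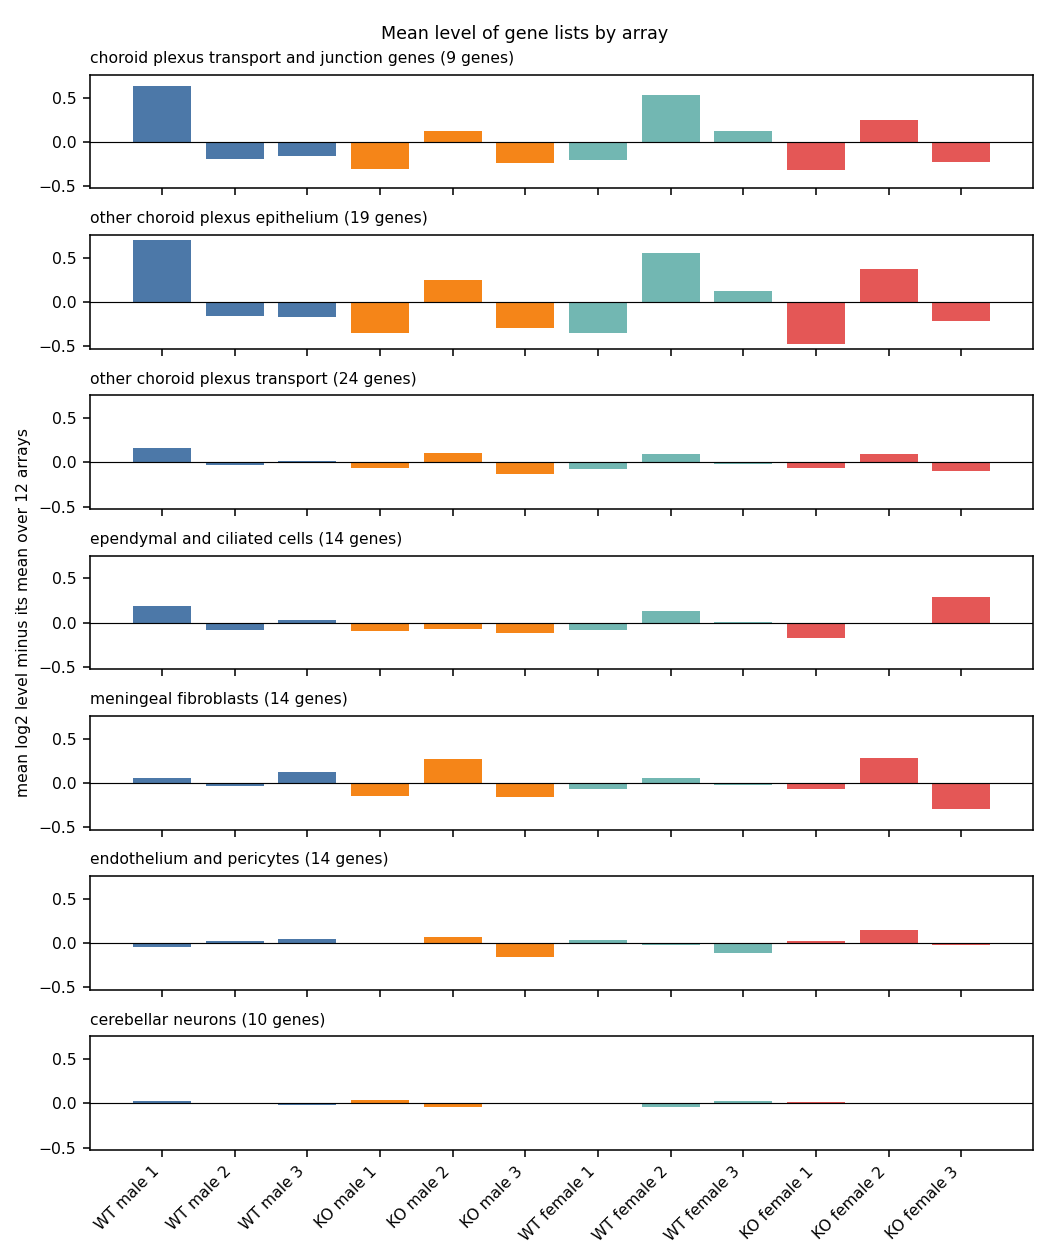
Mean log2 level of each gene list on each array, minus its mean over the 12 arrays, in bars from 0 coloured by group. The 9 choroid plexus genes and the 19 other epithelium genes were high on WT_male 1, WT_female 2, KO_female 2 and KO_male 2. WT_female 3 equalled KO_male 2 in the 9 genes, both at a mean of 6.65, and read 7.29 against 7.42 in the 19 others. The 10 cerebellar neuron genes stay between 11.05 and 11.13 in mean level.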

How the data were processed

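Per the labels, the authors deposited RMA intensity values made with Expression Console in its core-exon mode; the columns are on a linear scale. The submitters' processing notes list Transcriptome Analysis Console 3.0 as well, with no build. Array medians were 96.45 to 98.7. The design had assumed log2 values, so log2 was taken with no pseudocount. Of 41345 rows, 23521 had 1 gene symbol in GEO's platform annotation, 1814 several and 16010 none. The brightest row per gene was used, giving 22180 genes, with no filter on dim ones.

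limma 3.58.1 in R 4.3.3 fitted 4 group means over all 12 arrays with eBayes, and Benjamini-Hochberg adjustment ran over all genes at a threshold of 0.05. Slopes added the array's Ttr level to the group means. The labels name no batch, so none was tested. On simulated data 44% of genes changed by 0.3 over both sexes were recovered and 92.5% of those changed by 0.5, as were 70.5% of slopes of 0.1. These shares are over all genes, whose median SE over both sexes was 0.063, while the members' SEs were 0.11 to 0.28. For slopes the median SE of all genes was 0.018, and the members' SEs were 0.025 to 0.052. The shares therefore do not apply to the members. In the deposited data no slope on Ttr passed.

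The members and lists were chosen with earlier results of these data known. Genes named were the members, Ciz1, Ttr, the 10 other genes with the largest slope t, and the 3 smallest slope p-values of each list. Calb1, Gabra6, F5, Slc12a2, Atp1b1 and the family relatives were named for their known roles.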

Additional observations from a re-analysis of the deposited data

How the results depend on the processing

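No member passed a genotype, sex or interaction contrast under any alternative run; the filter on dim genes kept only Clic6 of the 9. Of the recomputed member differences, 174 of 181 kept their direction over both sexes, 179 of 190 in males and 178 of 190 in females. With Ttr as a covariate the sign turned in Clic6 (0.028 over both sexes, 0.095 in females), Cldn1 (0.032, and 0.117 in males), Trpv4 (0.07, 0.098 in males, 0.043 in females) and Cldn2 (0.053 in females). With the mean of other plexus genes it turned in Clic6 (0.055, 0.111 in females), Cldn1 (0.068, 0.169 in males), Trpv4 (0.086, 0.124 in males, 0.048 in females), Cldn2 (0.07 in females) and Slc4a5 (0.004 in males).

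Leaving out each array in turn gave ranges across 0 for Trpv4 over both sexes (-0.289 to 0.001). In males they did so for Slc4a5 (-0.589 to 0.141), Kcne2 (-0.397 to 0.036), Clic6 (-0.456 to 0.049), Cldn1 (-0.42 to 0.28) and Trpv4 (-0.345 to 0.163), with the highest value always without WT_male 1. In females they did so for Clic6 (-0.249 to 0.125), Cldn2 (-0.221 to 0.064) and Trpv4 (-0.449 to 0.087), highest without WT_female 2. The Slco1a5 slope ran from -0.008 without KO_female 2 to 0.063 without KO_female 1, and was -0.003 over wild-type arrays alone.

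Members past the threshold for the slope on Ttr were 0, with 1 under an intensity trend and 6 with the mean of other plexus genes in place of Ttr. Over all genes these counts were 0, 4 and 39, the 39 including 8 genes of that mean, and 0 to 1 leaving out an array. Over both sexes 5 genes passed, with 18 under the trend, 14 above the median brightness, 3 with either covariate and 3 to 8 leaving out an array. In males 5 became 2 with that sex alone and 2 to 4 leaving out an array. In females 5 became 26 under the trend, 16 above the median brightness, 8 with a pseudocount of 16 and 3 to 7 leaving out an array. For the interaction 0 became 2 under the trend, 2 above the median brightness, 1 with the pseudocount and 0 to 1 leaving out an array. For sex 8 became 15 and 13 under the trend and the filter, and 6 to 8 leaving out an array. The cause was not tested. No paired analysis was possible because the labels give no replicate numbers shared between groups.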
